A study of Homo sapiens with 18 samples.

Results

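The enzymes that keep glutathione and thioredoxin reduced and that remove superoxide and peroxides were followed through the differentiation of NB4, an established human cell line of acute promyelocytic leukemia. Members were taken by symbol from the probe sets annotated to a single gene: superoxide dismutases, catalase (CAT), glutathione peroxidases (GPX), peroxiredoxins (PRDX), thioredoxins (TXN) and their reductases (TXNRD), glutaredoxins (GLRX), the genes of glutathione synthesis and recycling, cytosolic (GST) and microsomal (MGST) glutathione S-transferases, NQO1 and HMOX1. This gave 52 of the 18417 genes that have a single-gene probe set, each represented by its brightest probe set. The symbol pattern also caught GSTM2P1, a pseudogene, and PRDX6-AS1, a non-coding RNA, so 50 of the 52 encode enzymes or redox proteins. The arrays held 6 groups of 3 biological replicates: wild-type cells and TG2 knockout cells, each untreated or after 48 or 72 h with 1 µM all-trans retinoic acid (ATRA), a ligand of retinoic acid receptors under which NB4 cells mature towards neutrophils. TG2 is transglutaminase 2, the product of TGM2. Sample titles say knockout and sample codes say KD. How the line was made and whether it is a single clone was not given in the labels. P-values measure the spread between these replicates, whose separate origin the labels do not describe further.

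Superoxide dismutases turn superoxide, the product of the phagocyte NADPH oxidase, into hydrogen peroxide, which catalase, glutathione peroxidases and peroxiredoxins reduce to water. Glutathione peroxidases draw their electrons from glutathione, a tripeptide made by glutamate-cysteine ligase (GCLC and GCLM) and glutathione synthetase (GSS) and kept reduced by glutathione reductase (GSR). Most peroxiredoxins draw theirs from thioredoxin, which thioredoxin reductase recycles with NADPH, and glutathione S-transferases couple glutathione to reactive molecules. The transcription factor NRF2 (NFE2L2), held down by the KEAP1 and CUL3 ubiquitin ligase, drives many of these genes through antioxidant response elements, with NQO1 and GCLM as textbook targets.

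Because antioxidant response elements link many members, their core, TGACNNNGC, was searched on both strands in the 250 bases before the start of each gene in RefSeq promoters of GRCh38.p14. It was present in 8 of the 40 members that the promoter table holds (20.0%) and in 3609 of 27305 genes of the table (13.2%). The members were GCLM, GSTM1, GSTM5, GSTA4, GSTO1, GSTP1, TXNRD1 and GPX2. The windows below, of 60 bases each, show a member whose signal fell in every ATRA comparison (GCLM), a member that rose in each (GSTO1) and 2 members called in none (GSTP1 and TXNRD1). Capitals mark the core. The windows are chr1:93909431-93909490 on the minus strand for GCLM, chr10:104254642-104254701 on the plus strand for GSTO1, chr11:67583721-67583780 on the plus strand for GSTP1 and chr12:104215655-104215714 on the plus strand for TXNRD1.
GCLM: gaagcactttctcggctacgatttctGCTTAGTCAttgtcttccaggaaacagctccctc
GSTO1: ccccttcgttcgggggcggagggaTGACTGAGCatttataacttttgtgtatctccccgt
GSTP1: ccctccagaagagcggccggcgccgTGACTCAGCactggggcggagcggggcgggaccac
TXNRD1: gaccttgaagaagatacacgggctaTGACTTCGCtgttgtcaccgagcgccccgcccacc

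In GCLM the core reads in the direction opposite to the gene, and in the other 3 windows along it. GSTO1 has a second core outside its window, along the gene, 161 to 153 bases before the start. TXNRD1 has a second promoter in the table, not shown, with a core opposite to the gene 102 to 94 bases before that start. A match of these letters is a description of the sequence, and binding was not measured. Bases farther than 250 from the start, and members that the promoter table lacks, were not searched. A member without a match here, such as NQO1, can therefore still hold the core elsewhere. Of the 9 members with a promoter in the table that were lower in all 4 ATRA comparisons, 1 held the core (GCLM). It was in 1 of the 2 called higher in all 4, in 0 of the 8 called in 1 to 3 and in 6 of the 21 called in none, and these shares were not tested against each other.

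Values are log2 signals of 33297 probe sets, so levels are compared only within a probe set. The 7 measured markers of NB4's myeloid identity lay above the median probe set in every group, with array means of 9.54 to 9.98. They did not stay level under ATRA, with log2 changes of -2.93 to 1.13. In each ATRA comparison 2 were called lower, where 19.2% to 21% of all probe sets were. Called higher were 3 and 4 at 48 h and 72 h in wild-type and 3 and 2 in knockout cells, where 19.3% to 23.1% of all probe sets were. TGM2, the targeted gene, read 6.43 ± 0.17 (SD, n = 3) in wild-type and 6.39 ± 0.11 in knockout cells before ATRA, and at 72 h of ATRA 12.37 and 11.24 ± 0.37. Its genotype difference of -1.31 at 48 h and -1.13 at 72 h (limma adjusted p 0.0345 and 0.0267) lost its call under 8 and 7 alternatives, among them the loss of any 1 array but knockout replicate 3 at 48 h and of 4 of the 6 arrays at 72 h (not wild-type replicate 2 or knockout replicate 1). The values there ran from -1.42 to -1.12 and from -1.13 to -0.94. Thus in these arrays the knockout shows as a lower induced TGM2 signal and not as its absence. Each 72 h call below is against the same untreated arrays as its 48 h call. ATRA arrays spread more than untreated ones, with a median SD of 0.215 to 0.243 against 0.0757 and 0.0985, and 4 of them (replicate 1 of wild-type at 48 h, replicates 1 and 3 of knockout at 48 h, replicate 2 of knockout at 72 h) lay nearest to the untreated arrays on the first principal component. In bulk RNA, fewer cells of a type and less RNA per cell cannot be told apart.

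In both genotypes the RNA signal of some members was lower under ATRA and that of a smaller number higher. Amount and activity of the enzymes were not measured. Lower in all 4 ATRA comparisons were 11 members: NQO1, MGST1, MGST3, TXN2, GSTM4, GPX1, GCLM, CAT, GSTM2, PRDX3 and PRDX6. Higher in all 4 were MGST2, GSTO1 and GPX8. How many of all probe sets were called in all 4 was not counted, so these counts are not read as a trait of the family. In single comparisons 19.2% to 21% of all probe sets were called lower and 19.3% to 23.1% higher. Of the 50 that encode enzymes or redox proteins, a further 11 were called in 1 to 3 comparisons and 25 in none, 15 of which had a mean under that of the median probe set. Of the other 2 members, PRDX6-AS1 was called in 1 comparison and GSTM2P1 in none. The overall shift was small, since the median log2 change over the 52 members was -0.10 and -0.06 at 48 h and 72 h in wild-type cells and -0.02 and -0.07 in knockout cells, beside 0.10, 0.12, 0.14 and 0.13 over all probe sets. Of the 77 member calls under ATRA, 21 ended when 1 array was left out and 25 under any alternative run. The calls of 11 members held under every alternative run: NQO1, MGST1, MGST2, MGST3, CAT, GPX1, TXN2, GCLM, GSTM2, GSTM4 and GSTO1. For GPX1 the brightest probe set is also the most variable, so no alternative used its second probe set, which was not called (below).

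**Figure D1:**
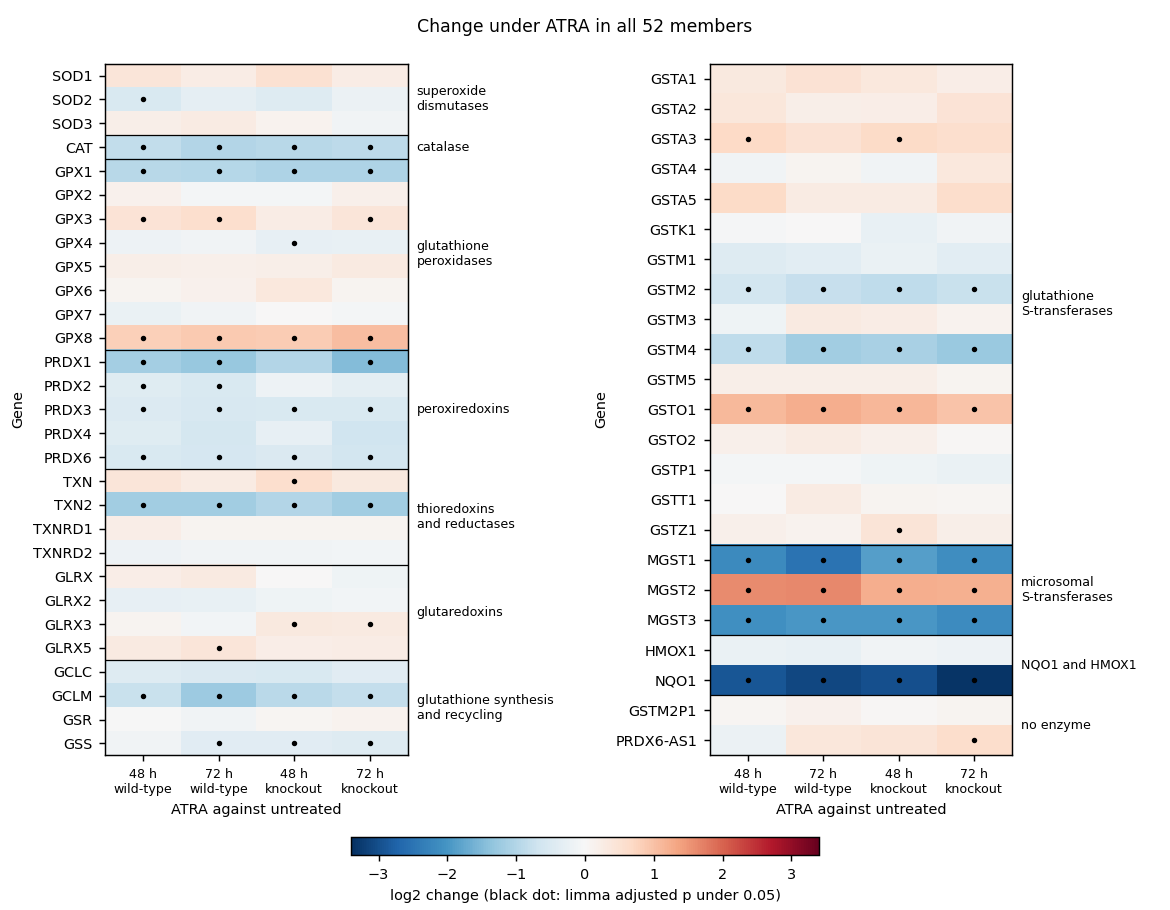
Log2 change of each of the 52 members (vertical axis) in the 4 ATRA comparisons (horizontal axis: 48 h and 72 h in wild-type, then in knockout cells), coloured from blue (lower under ATRA) to red (higher), with a black dot at a limma adjusted p under 0.05. NQO1, MGST1 and MGST3 are the darkest blue and MGST2 the darkest red, and most other cells are pale.

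In wild-type cells 19 of 52 members (36.5%) were called at 48 h, where 38.9% of all probe sets were called, and 19 (36.5%) at 72 h, where 44% were. In knockout cells 20 (38.5%) were called at 48 h against 41.4% of all probe sets, and 19 (36.5%) at 72 h against 42%. These shares lie near or under those of all probe sets. The calls leaned to lower values, 14 lower against 5 higher at either time in wild-type cells (26.9% and 9.62% of members), where 19.6% and 21% of all probe sets were called lower and 19.3% and 23.1% higher at 48 h and 72 h. Knockout cells had 13 lower and 7 higher at 48 h and 13 lower and 6 higher at 72 h, with 19.9% and 19.2% of all probe sets lower and 21.5% and 22.8% higher. All members called lower lay among the 32 above the median probe set. There 43.8% of members were lower at either time in wild-type and 40.6% in knockout cells, beside 31.8%, 34.5%, 33.2% and 32.1% of all probe sets above the median. The spread of an array over its probe sets was also smaller under ATRA (SD 2.12 to 2.28) than in untreated cells (2.39 to 2.40), and its part in the lower calls was not tested. With quantile normalization the split was 8 higher and 10 lower at either time in wild-type cells. In knockout cells it was 10 and 10 at 48 h and 8 and 12 at 72 h. Members called were then 18 at either time in wild-type cells, beside 32.2% and 35.6% of all probe sets. In knockout cells they were 20 (38.5%) at either time, above the 32.8% and 32.2% of all probe sets. With arrays centred on their median the split was 3 higher and 15 lower at either time in knockout cells, where 38.2% and 40.2% of all probe sets were called. The directions of all probe sets under these 2 alternatives were not counted.

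NQO1, a quinone reductase that spends NADPH to reduce quinones without forming radicals, fell furthest of all members. NQO1 read 9.25, 9.38 and 9.31 in untreated wild-type cells, 6.62, 6.44 and 6.18 at 48 h of ATRA and 5.99, 6.56 and 6.13 at 72 h. Knockout arrays of NQO1 gave 9.57, 9.56 and 9.36 untreated, 7.11, 6.36 and 6.05 at 48 h and 5.85, 6.76 and 5.90 at 72 h. Every ATRA array lay below every untreated array, and knockout replicate 1 at 48 h and replicate 2 at 72 h were the highest of their groups. The group means were 9.31 ± 0.07 (SD, n = 3) and 6.23 ± 0.30 in wild-type cells untreated and at 72 h. The log2 changes at 48 h and 72 h were -2.90 and -3.09 in wild-type cells and -2.99 and -3.33 in knockout cells (SE 0.26, adjusted p 1.06e-07 to 3.87e-07), which is 7.46-fold to 10.0-fold lower. HMOX1, the inducible heme oxygenase and another NRF2 target, changed by -0.22 and -0.26 in wild-type cells and -0.11 and -0.16 in knockout cells and was called in none of these comparisons.

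The 3 microsomal glutathione S-transferases, membrane proteins that act on lipid peroxides and eicosanoids, moved apart. MGST1 read 10.49, 10.43 and 10.43 in untreated wild-type cells, 8.79, 8.46 and 7.63 at 48 h of ATRA and 7.89, 8.71 and 7.21 at 72 h. Knockout arrays of MGST1 gave 10.56, 10.44 and 10.64 untreated, 8.97, 8.77 and 8.26 at 48 h and 7.99, 8.96 and 8.37 at 72 h. All ATRA arrays of MGST1 were below the untreated ones, with replicate 3 lowest at both times in wild-type cells. Its changes were -2.16 and -2.51 in wild-type cells and -1.88 and -2.11 in knockout cells (SE 0.34, adjusted p 2.07e-05 to 0.00036). MGST3 held 9.94, 9.93 and 9.94 in untreated wild-type cells, 8.43, 7.72 and 7.38 at 48 h of ATRA and 8.19, 7.84 and 7.80 at 72 h. For MGST3 the knockout arrays held 10.19, 10.18 and 10.16 before ATRA, 8.33, 8.49 and 7.79 after 48 h and 7.52, 8.61 and 7.95 after 72 h. MGST3 likewise separated ATRA from untreated arrays in both genotypes, and its tight untreated values contrast with a wider spread after ATRA. The changes of MGST3 were -2.09 and -1.99 in wild-type cells and -1.97 and -2.15 in knockout cells (SE 0.26, adjusted p 1.11e-05 to 2.5e-05). MGST2, which can make leukotriene C4, rose instead. MGST2 gave 6.62, 6.37 and 6.84 in untreated wild-type cells, 8.48, 8.21 and 7.93 at 48 h of ATRA and 8.47, 8.30 and 7.96 at 72 h. Knockout arrays of MGST2 gave 6.94, 6.98 and 6.88 untreated, 8.59, 8.15 and 7.76 at 48 h and 8.03, 8.57 and 7.86 at 72 h. No ATRA array of MGST2 overlapped the untreated arrays. It changed by 1.60 and 1.63 in wild-type cells and 1.23 and 1.22 in knockout cells (SE 0.22, adjusted p 2.28e-05 to 0.000407).

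Catalase, which breaks down hydrogen peroxide without an electron donor, fell. CAT read 10.22, 10.29 and 10.24 in untreated wild-type cells, 9.70, 9.19 and 9.31 at 48 h of ATRA and 9.14, 9.46 and 9.14 at 72 h. For CAT the knockout arrays held 10.54, 10.49 and 10.54 before ATRA, 9.86, 9.11 and 9.79 after 48 h and 9.26, 9.89 and 9.71 after 72 h. The ATRA and untreated arrays of CAT did not overlap in either genotype. Its log2 changes were -0.85 and -1.0 in wild-type cells and -0.94 and -0.90 in knockout cells (SE 0.19, adjusted p 0.000528 to 0.00227). Among the 8 glutathione peroxidases GPX1 fell and GPX8 rose in every ATRA comparison. GPX1 read 11.64, 11.70 and 11.66 in untreated wild-type cells, 10.91, 10.59 and 10.66 at 48 h of ATRA and 10.67, 10.86 and 10.59 at 72 h. Knockout arrays of GPX1 gave 11.61, 11.56 and 11.65 untreated, 10.58, 10.72 and 10.35 at 48 h and 10.50, 10.81 and 10.33 at 72 h. Every ATRA array of GPX1 was lower than every untreated one, and the changes were -0.95 and -0.96 in wild-type cells and -1.06 and -1.06 in knockout cells (SE 0.12, adjusted p 7.22e-06 to 1.96e-05). GPX1 has a second probe set, annotated to another transcript of the gene, whose group means stayed between 9.02 and 9.20 and whose changes of -0.01, 0.02, -0.18 and -0.08 (SE 0.11) were not called, so the fall rests on 1 of its 2 probe sets.

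GPX8, a peroxidase of the endoplasmic reticulum, had a dim probe set, with a mean under that of the median probe set. Among such probe sets 19.5%, 25.1%, 21.8% and 26.7% were called higher at 48 h and 72 h in wild-type and then in knockout cells, with median changes of 0.21, 0.26, 0.26 and 0.28. GPX3 and GSTA3 lay there too. GPX8 read 3.51, 3.06 and 3.05 in untreated wild-type cells, 3.70, 4.24 and 4.15 at 48 h of ATRA and 4.10, 4.35 and 3.83 at 72 h. For GPX8 the knockout arrays held 3.14, 3.14 and 3.31 before ATRA, 3.93, 3.89 and 4.37 after 48 h and 4.50, 4.18 and 4.05 after 72 h. The groups did not overlap, and the changes were 0.82 and 0.89 in wild-type cells and 0.87 and 1.05 in knockout cells (SE 0.21, adjusted p 0.000871 to 0.00525). Without the 4 arrays nearest to the untreated ones, which leaves 1 knockout array at 48 h, assumed to vary like the other groups, the 48 h change of GPX8 in knockout cells was 0.69 (adjusted p 0.0576). GPX3, the secreted form, changed by 0.46 and 0.56 in wild-type cells and 0.26 and 0.40 in knockout cells and was called in all but the 48 h knockout comparison (adjusted p 0.192). GPX4, which reduces lipid peroxides in membranes, changed by -0.18 and -0.11 in wild-type cells and -0.27 and -0.24 in knockout cells and was called at 48 h in knockout cells alone (adjusted p 0.0409), while the difference between the genotypes' responses was not called. That call of GPX4 ended under 10 of its 16 alternatives, among them the loss of any 1 of its 6 arrays, and the change was -0.06 with quantile normalization (adjusted p 0.636). The 48 h wild-type and 72 h knockout calls of GPX3 also ended when single arrays were left out (0.38, adjusted p 0.106, without wild-type 48 h replicate 3 and 0.31, adjusted p 0.149, without knockout 72 h replicate 2). GPX2, GPX5, GPX6 and GPX7 were called in none, with changes between -0.22 and 0.35.

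All 5 peroxiredoxins measured had lower means under ATRA, and 4, 4, 2 and 3 of them were called at 48 h and 72 h in wild-type and then in knockout cells, where 31.8%, 34.5%, 33.2% and 32.1% of the probe sets above the median were called lower. PRDX1, the abundant cytosolic form and an NRF2 target, varied most between replicates among them. PRDX1 read 10.72, 10.79 and 10.70 in untreated wild-type cells, 9.96, 10.00 and 8.80 at 48 h of ATRA and 9.58, 10.01 and 8.75 at 72 h. Knockout arrays of PRDX1 gave 10.71, 10.79 and 10.72 untreated, 10.14, 9.99 and 9.09 at 48 h and 8.64, 10.28 and 8.88 at 72 h. Replicate 3 was the lowest of both 48 h groups and of wild-type cells at 72 h, while replicate 1 was lowest in knockout cells at 72 h and replicate 2 was nearest to the untreated level there. The changes of PRDX1 were -1.15 and -1.29 in wild-type cells and -1.0 and -1.47 in knockout cells (SE 0.41, adjusted p 0.0092 to 0.0615), and the 48 h knockout value was not called (adjusted p 0.0615). Without wild-type 48 h replicate 3 the 48 h change was -0.76 (adjusted p 0.181), without wild-type 72 h replicate 3 the 72 h change was -0.94 (adjusted p 0.0967), and without knockout 72 h replicate 1 it was -1.16 (adjusted p 0.0522). Leaving out any 1 untreated wild-type array also ended the 48 h call, with adjusted p of 0.0764 to 0.0857. With quantile normalization PRDX1 lost both wild-type calls (adjusted p 0.0882 and 0.052).

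PRDX3, the mitochondrial peroxiredoxin, changed by -0.47 and -0.54 in wild-type cells and -0.51 and -0.51 in knockout cells (SE 0.13, adjusted p 0.00334 to 0.00913). PRDX6, which uses glutathione, changed by -0.51 and -0.57 in wild-type cells and -0.50 and -0.63 in knockout cells (SE 0.15, adjusted p 0.00416 to 0.0158). With quantile normalization PRDX6 missed the threshold in wild-type cells at both times (adjusted p 0.0951 and 0.0544) and in knockout cells at 48 h (0.0956). Without wild-type 48 h replicate 3 the 48 h change in wild-type cells was -0.38 for PRDX3 (adjusted p 0.0509), -0.38 for PRDX6 (0.0862) and -0.33 for PRDX2 (0.12). The 48 h calls of PRDX6 also ended without untreated wild-type replicate 1 and, in knockout cells, without replicate 2 (both adjusted p 0.0505). PRDX2 was called in wild-type cells alone, at -0.41 and -0.53 in wild-type cells and -0.16 and -0.34 in knockout cells, and its genotype difference was not called. With quantile normalization PRDX2 lost both calls (adjusted p 0.337 and 0.134), and its 48 h call ended without any 1 of the 3 untreated arrays (0.0643 to 0.0865). PRDX4, of the endoplasmic reticulum, changed by -0.41 and -0.59 in wild-type cells and -0.27 and -0.67 in knockout cells and was not called. Among the superoxide dismutases, SOD2, the mitochondrial enzyme, was called lower at 48 h in wild-type cells (-0.52, adjusted p 0.0341) and SOD1 and SOD3 in no comparison. The SOD2 call ended under 6 alternatives, with -0.40 (adjusted p 0.12) without wild-type 48 h replicate 1.

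Of the thioredoxin system TXN2, mitochondrial thioredoxin, fell in every ATRA comparison. It was nearly the same on all untreated wild-type arrays and lower on every ATRA array. TXN2 read 8.90, 8.90 and 8.90 in untreated wild-type cells, 7.94, 7.38 and 7.85 at 48 h of ATRA and 7.74, 7.86 and 7.52 at 72 h. Knockout arrays of TXN2 gave 8.85, 8.79 and 8.74 untreated, 7.77, 7.85 and 7.77 at 48 h and 7.52, 7.68 and 7.62 at 72 h. Its lowest value, on wild-type 48 h replicate 2, was 7.38. The changes of TXN2 were -1.18 and -1.19 in wild-type cells and -1.0 and -1.19 in knockout cells (SE 0.13, adjusted p 2.77e-06 to 2.12e-05). TXN, the cytosolic thioredoxin, changed by 0.42 and 0.28 in wild-type cells and 0.57 and 0.34 in knockout cells and was called higher at 48 h in knockout cells alone (adjusted p 0.0377), a call that 6 alternatives ended (0.49, adjusted p 0.119, without knockout 48 h replicate 2). TXNRD1 and TXNRD2, the cytosolic and mitochondrial reductases that recycle TXN and TXN2, changed by -0.18 to 0.23 and were not called. With quantile normalization TXNRD1 was called higher in all 4 comparisons (0.49, 0.37, 0.35 and 0.34, adjusted p 0.00126 to 0.0158).

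Of the 4 glutaredoxins, which use glutathione to reduce mixed disulfides or carry iron-sulfur clusters, GLRX3 was called higher in knockout cells (0.33 and 0.31, adjusted p 0.035 and 0.0416) and GLRX5 in wild-type cells at 72 h (0.40, adjusted p 0.0122). A second probe set of GLRX5 went the other way, at -0.46, -0.58, -0.37 and -0.57 (SE 0.20), with both 72 h values called, so no direction is given for GLRX5. Each of the GLRX3 calls ended under 8 alternatives, with values as low as 0.25 at both times when 1 array was left out. GLRX and GLRX2 were not called. With quantile normalization, however, GLRX was called higher in wild-type cells at 48 h and 72 h (0.49 and 0.58, limma adjusted p 0.0132 and 0.00379). GLRX3 was then also called higher in wild-type cells at 48 h (0.38, adjusted p 0.0199). GLRX2 was called lower in wild-type cells under 1 alternative at either time.

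Of the genes of glutathione synthesis GCLM, the modifier subunit of the rate-limiting ligase, fell in every ATRA comparison. GCLM read 7.29, 7.29 and 7.17 in untreated wild-type cells, 6.85, 6.38 and 6.20 at 48 h of ATRA and 6.10, 5.94 and 6.02 at 72 h. For GCLM the knockout arrays held 7.09, 7.39 and 7.23 before ATRA, 6.76, 5.82 and 6.37 after 48 h and 6.18, 6.67 and 6.40 after 72 h. The untreated arrays of GCLM all lay above the ATRA arrays, with the widest ATRA spread at 48 h in knockout cells. GCLM changed by -0.77 and -1.23 in wild-type cells and -0.92 and -0.82 in knockout cells (SE 0.21, adjusted p 0.000183 to 0.00763). The catalytic subunit GCLC changed by -0.45 and -0.50 in wild-type cells and -0.51 and -0.39 in knockout cells, with adjusted p between 0.0521 and 0.125, and was called in none. It lay near the threshold, and 4 and 7 alternatives in wild-type and 8 and 1 in knockout cells called it lower, the replicate block among them in all but the 72 h knockout comparison (adjusted p 0.0272 to 0.0496). GSS, which completes the tripeptide, changed by -0.13 and -0.39 in wild-type cells and -0.39 and -0.44 in knockout cells and was called in all but the 48 h wild-type comparison. With quantile normalization GSS was not called in any (adjusted p 0.253 to 0.555). GSR, which returns oxidised glutathione to its reduced form, changed by -0.02 and -0.12 in wild-type cells and 0.07 and 0.12 in knockout cells and was not called.

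Among the 16 cytosolic, kappa, omega and zeta glutathione S-transferases, GSTM2 and GSTM4 fell and GSTO1 rose in every ATRA comparison. GSTM4 read 9.17, 9.27 and 9.31 in untreated wild-type cells, 8.53, 8.41 and 8.22 at 48 h of ATRA and 8.18, 8.23 and 7.83 at 72 h. Knockout arrays of GSTM4 gave 9.20, 9.21 and 9.11 untreated, 7.96, 8.44 and 7.78 at 48 h and 7.98, 8.01 and 7.72 at 72 h. Neither genotype had overlapping ATRA and untreated values of GSTM4, which changed by -0.86 and -1.17 in wild-type cells and -1.11 and -1.27 in knockout cells (SE 0.16, adjusted p 1.11e-05 to 0.000386). GSTM2 changed by -0.63 and -0.78 in wild-type cells and -0.87 and -0.75 in knockout cells (SE 0.13, adjusted p 6.2e-05 to 0.00106). The GSTM genes are close copies of each other, as are the GSTA genes, so a probe set can read a relative, and these values are uncertain as to the gene. GSTM1, GSTM3 and GSTM5 were not called, with changes of -0.45 to 0.30. GSTO1 gave 8.46, 8.42 and 8.60 in untreated wild-type cells, 9.53, 9.60 and 9.68 at 48 h of ATRA and 9.91, 9.87 and 9.40 at 72 h. For GSTO1 the knockout arrays held 8.46, 8.62 and 8.28 before ATRA, 9.68, 9.83 and 9.25 after 48 h and 9.39, 9.62 and 9.25 after 72 h. All ATRA arrays of GSTO1, an omega transferase that reduces dehydroascorbate, were above all untreated ones. GSTO1 changed by 1.11 and 1.23 in wild-type cells and 1.13 and 0.97 in knockout cells (SE 0.16, adjusted p 1.55e-05 to 0.000192).

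GSTP1, the pi transferase, stayed close to its untreated values of 11.58 to 11.65, with changes of -0.07 and -0.06 in wild-type cells and -0.15 and -0.23 in knockout cells and no call. GSTK1, GSTT1 and GSTO2 were not called either. GSTZ1 was called higher at 48 h in knockout cells (0.44, adjusted p 0.0265), a call that 6 alternatives ended. Of the dim GSTA genes GSTA3 was called higher at 48 h in both genotypes (0.67 and 0.64, adjusted p 0.0419 and 0.0472), and GSTA1, GSTA2, GSTA4 and GSTA5 were not. Without knockout 48 h replicate 2 the knockout change of GSTA3 was 0.30 (adjusted p 0.279). Outside the enzymes, PRDX6-AS1 was called higher at 72 h in knockout cells (0.59, adjusted p 0.0493), a call that 9 alternatives ended, and GSTM2P1 was not called.

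**Figure D2:**
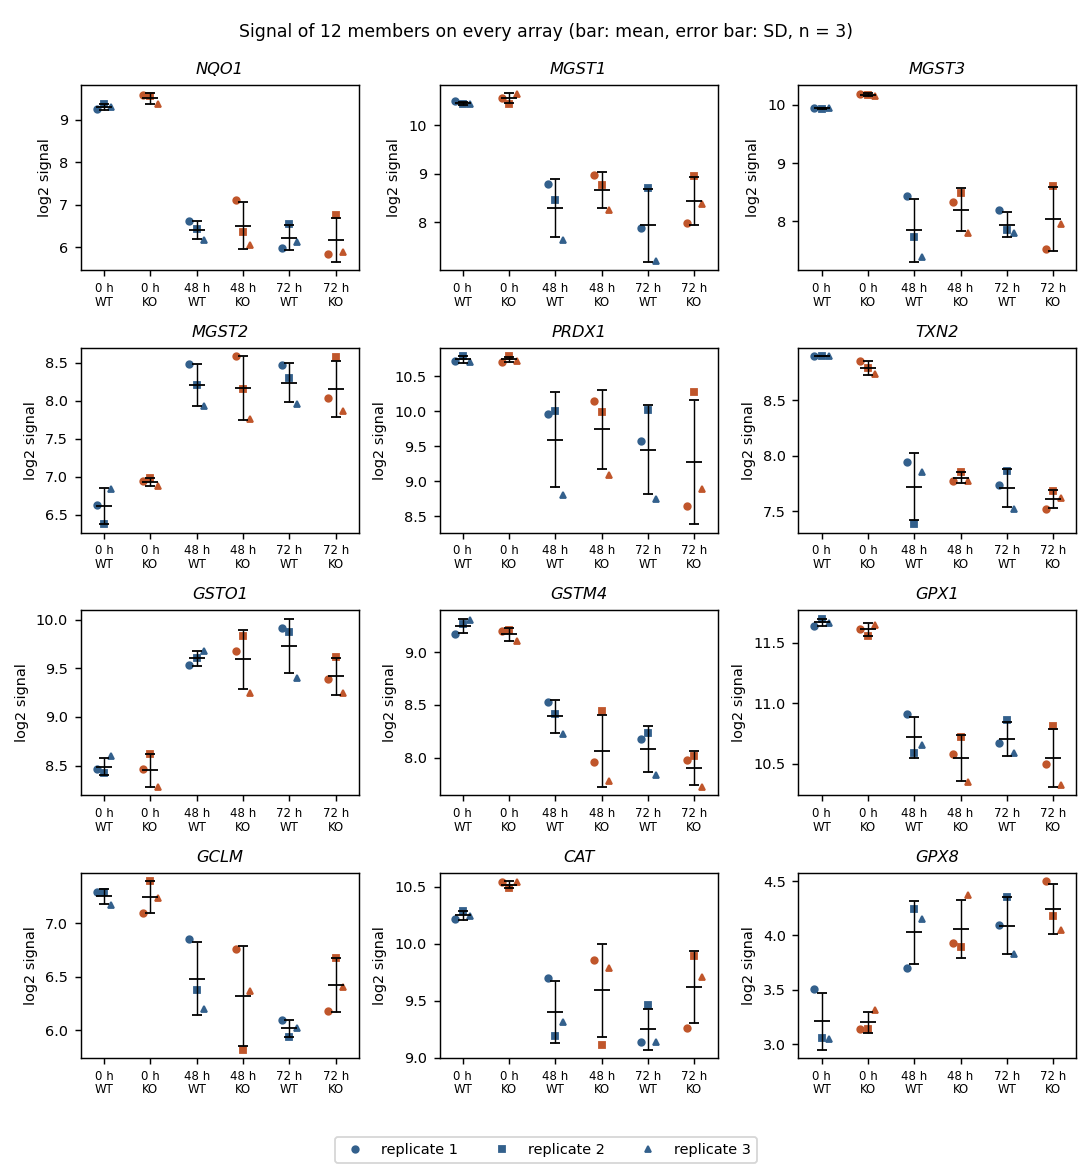
Log2 signal (vertical axes) of 12 members on each of the 18 arrays, by hours of ATRA and genotype (WT, wild-type, blue; KO, knockout, orange), with a marker shape per replicate number and bars for the mean and SD (n = 3). In every panel the untreated arrays and the ATRA arrays occupy separate ranges, for NQO1 9.25 to 9.57 untreated and 5.85 to 7.11 after ATRA. The 12 were chosen by their ATRA calls and a log2 change of at least 1, so the separation follows in part from that choice. The share of all probe sets that separate in this way was not counted.

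The knockout cells were compared with wild-type cells untreated, at 48 h and at 72 h, and in the size of their ATRA response. No member was called by limma in these 5 comparisons, in which 0.00601%, 0.021%, 0.0961%, 0.003% and 0% of all probe sets were called. The fit takes 1 spread for all groups, while untreated arrays had a median SD of 0.0757 and 0.0985 and ATRA arrays 0.215 to 0.243. With only the untreated arrays in the fit 2 members were called (CAT and MGST3), beside 0.853% of all probe sets. With array weights per group 0 members were, beside 0.928%. At an unadjusted p under 0.05 there were 0, 1 and 4 members in the genotype comparisons and 0 and 3 in the differences of response at 48 h and 72 h, where 1.15%, 5.92%, 11.2%, 2.88% and 4.66% of all probe sets were. Genotype differences of the 52 members ran from -0.29 to 0.32 untreated, from -0.49 to 0.46 at 48 h and from -0.64 to 0.50 at 72 h. Their 95% intervals, not adjusted for the number of members, reached -1.18 to 1.09 at 48 h and -1.05 to 1.22 at 72 h, so for the noisiest members these arrays leave a wide range of possible differences. For NQO1 the 72 h difference was -0.06 with an interval of -0.60 to 0.49. The difference of GCLM at 72 h was 0.40 (interval -0.04 to 0.84) and that of PRDX1 -0.18 (interval -1.04 to 0.69).

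**Figure D3:**
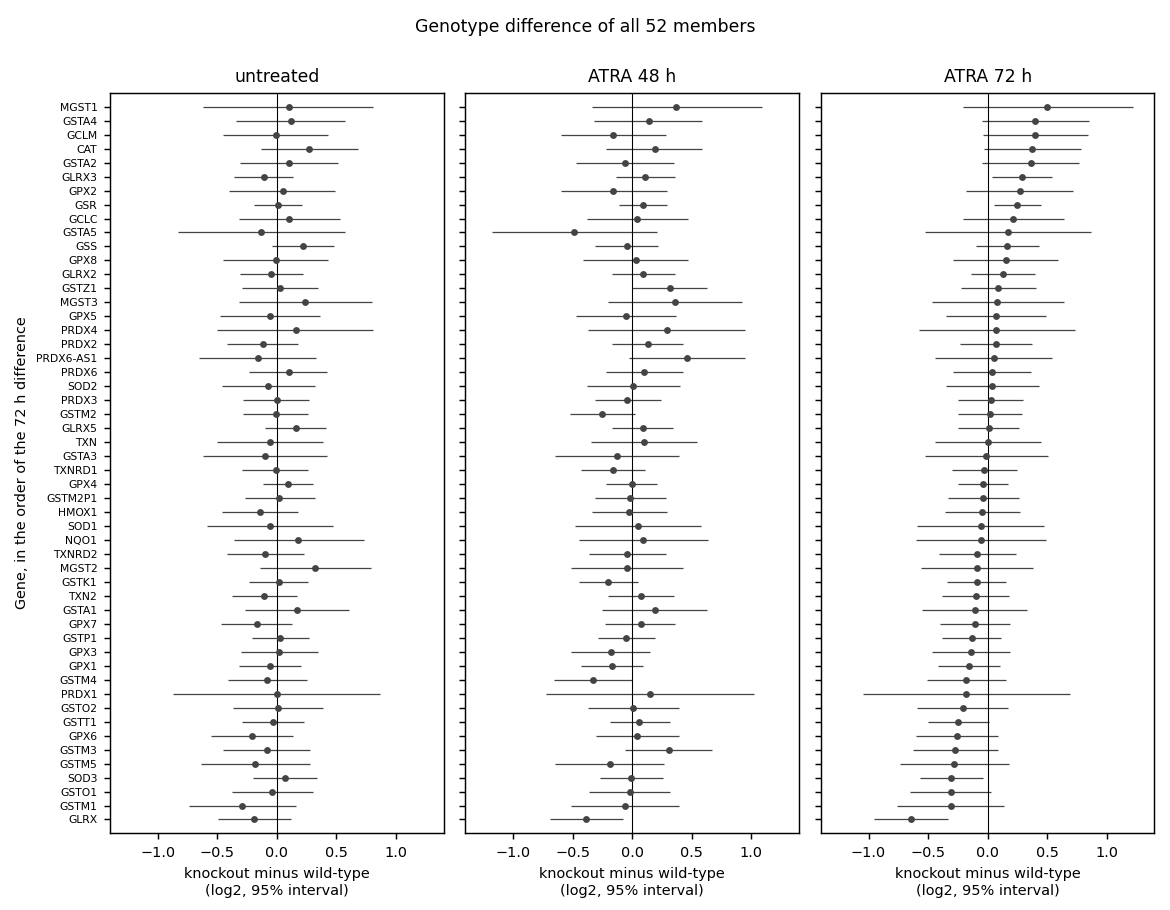
Knockout minus wild-type difference in log2 signal (horizontal axes) of the 52 members (vertical axis, ordered by the 72 h difference) untreated, at 48 h and at 72 h of ATRA, as points with 95% intervals of the limma fit that are not adjusted for the number of members. Points run from -0.64 (GLRX) to 0.50 (MGST1) at 72 h, and no member was called in any panel.

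Since none was called, the 3 members with the smallest p over these comparisons are described. Where their arrays do not overlap between the genotypes, this follows in part from that choice. The share of all probe sets without such overlap was not counted. GLRX, the cytosolic glutaredoxin that removes glutathione from proteins, had lower values in knockout cells. GLRX read 9.53, 9.44 and 9.41 in untreated wild-type cells, 9.62, 9.51 and 9.90 at 48 h of ATRA and 9.89, 9.43 and 9.97 at 72 h. Knockout arrays of GLRX gave 9.28, 9.35 and 9.19 untreated, 9.34, 9.25 and 9.28 at 48 h and 8.98, 9.40 and 8.99 at 72 h. The arrays of the genotypes did not overlap at any time, but at 72 h wild-type replicate 2 (9.43) and knockout replicate 2 (9.40) nearly met. The difference was -0.19 untreated (adjusted p 1.0), -0.39 at 48 h (0.712) and -0.64 ± 0.15 (SE) at 72 h (0.115, interval -0.95 to -0.33). With the replicate number as a block, which pairs the 72 h arrays, adjusted p was 0.121. It was 0.0228 without wild-type 72 h replicate 2, 0.0471 without knockout 72 h replicate 2 and 0.0326 without the 4 arrays nearest to the untreated ones. The difference of the ATRA responses at 72 h was -0.45 ± 0.21 (adjusted p 1.0). GLRX has 1 probe set in the table.

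Maturation markers were not called between the genotypes either. At an unadjusted limma p under 0.05, however, 3 of the 6 neutrophil maturation genes differed at 48 h and 3 at 72 h. Of the 5 measured monocyte and macrophage markers 1 and 2 did, where 5.92% and 11.2% of all probe sets did. Median differences, knockout minus wild-type, were -0.55 and -0.34 for the neutrophil genes and -0.28 and -0.19 for the other markers. The array means of the 6 neutrophil maturation genes were 8.44 to 9.05 at 72 h in wild-type and 8.04 to 8.68 in knockout cells, and those of the 5 measured monocyte and macrophage markers 5.72 to 6.10 and 5.33 to 5.59. Their part in the GLRX values was not tested.

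GSR and GLRX3 were the other 2. GSR read 10.26, 10.30 and 10.29 in untreated wild-type cells, 10.34, 10.28 and 10.18 at 48 h of ATRA and 10.18, 10.31 and 10.01 at 72 h. Knockout arrays of GSR gave 10.29, 10.28 and 10.31 untreated, 10.51, 10.28 and 10.29 at 48 h and 10.43, 10.52 and 10.29 at 72 h. At 72 h the GSR arrays of the genotypes overlapped, and the difference was 0.25 ± 0.09 (SE, adjusted p 0.343). GLRX3 read 9.40, 9.46 and 9.38 in untreated wild-type cells, 9.53, 9.75 and 9.27 at 48 h of ATRA and 9.23, 9.36 and 9.37 at 72 h. For GLRX3 the knockout arrays held 9.36, 9.30 and 9.24 before ATRA, 9.77, 9.50 and 9.61 after 48 h and 9.46, 9.74 and 9.64 after 72 h. GLRX3, a glutaredoxin of iron-sulfur cluster handling, was higher on every knockout array than on every wild-type array at 72 h, by 0.29 ± 0.12 (adjusted p 0.355), and lower on every untreated one, by -0.11 (adjusted p 1.0). GLRX3 too was chosen by its small p, and the share of all probe sets that separate in this way was not counted. The ATRA response of GLRX3 differed by 0.41 ± 0.17 at 72 h (adjusted p 1.0).

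**Figure D4:**
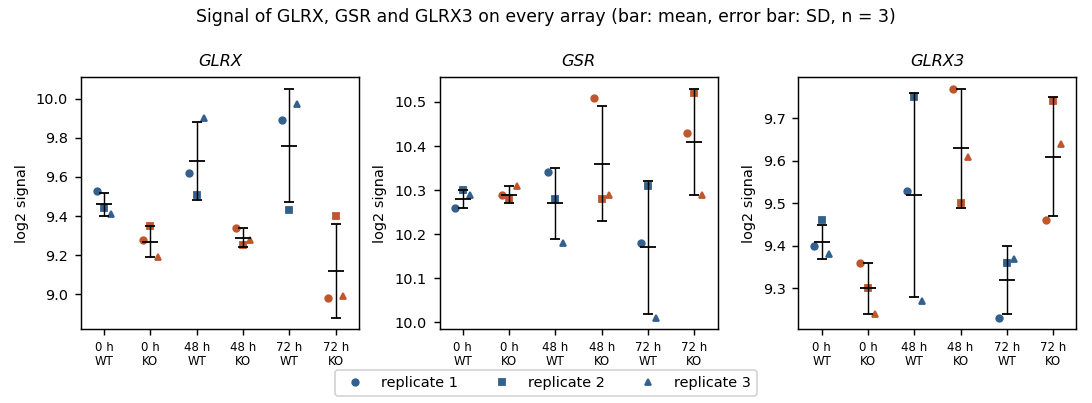
Log2 signal (vertical axes, each on its own range) of GLRX, GSR and GLRX3 on each array by hours of ATRA and genotype (WT blue, KO orange), with a marker shape per replicate number and bars for the mean and SD (n = 3). At 72 h GLRX reads 9.43 to 9.97 in wild-type and 8.98 to 9.40 in knockout cells. The 3 were chosen by their small p between the genotypes, so this separation follows in part from that choice.

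Between 48 h and 72 h of ATRA no member was called in either genotype, and 0% of all probe sets were. At an unadjusted p under 0.05 limma had 4 members in wild-type cells (GCLM -0.46, GSTM3 0.45, GSTT1 0.27 and PRDX6-AS1 0.57) and 1 in knockout cells (GSTA4 0.48), where 5.86% and 8.2% of all probe sets were. No further change between the times among the members was detectable with 3 arrays a group.

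Genes around these enzymes were counted from 6 lists, with changes below in the order 48 h and 72 h in wild-type, then 48 h and 72 h in knockout cells. In that order 19.3%, 23.1%, 21.5% and 22.8% of all probe sets were called higher and 19.6%, 21%, 19.9% and 19.2% lower, and above the median probe set 19.1%, 21%, 21.2% and 18.9% higher and 31.8%, 34.5%, 33.2% and 32.1% lower. Of 10 measured NRF2 pathway regulators, 3, 2, 1 and 2 were called higher and 3, 3, 4 and 2 lower, with medians of -0.12, 0.00, -0.24 and -0.10. The 5 calls at 48 h in knockout cells were 2 or 3 under 7 of the alternatives, among them the loss of any 1 untreated knockout array or of knockout 48 h replicate 1 or 2, and the 5 at 72 h in wild-type cells were 3 with quantile normalization. NFE2L2, which encodes NRF2 itself, changed by -0.78, -0.58, -0.73 and -0.69 (SE 0.20) and CUL3, the scaffold of the ligase that degrades NRF2, by -1.09, -1.10, -1.20 and -0.91 (SE 0.14), both called lower in all 4. With quantile normalization NFE2L2 lost all 4 calls (adjusted p 0.0661 to 0.32), and without wild-type 72 h replicate 2 its 72 h change in wild-type cells was -0.38 (adjusted p 0.154). SQSTM1, an autophagy receptor that binds KEAP1, changed by 0.79, 0.97, 0.41 and 0.65 (SE 0.19) and was called higher in all but the 48 h knockout comparison. BACH2, a repressor of the same elements, changed by 0.51, 0.50, 0.36 and 0.41 (SE 0.13) and was called higher in all 4, but lost both knockout calls with quantile normalization (adjusted p 0.194 and 0.103).

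Of 16 other NRF2 targets, 3, 2, 1 and 2 were higher and 4, 4, 5 and 6 lower, with medians of -0.06, -0.19, -0.14 and 0.10. The 6 calls at 72 h in wild-type cells were 11 with array weights and 10 with only the compared groups in the fit. The 7 at 48 h were 3 or 4 without any 1 untreated wild-type array or without wild-type 48 h replicate 3, and 12 without the 4 arrays nearest to the untreated ones. EPHX1, an epoxide hydrolase, changed by -1.54, -1.49, -1.48 and -1.74 (SE 0.20), ABCC4, an efflux pump, by -1.19, -1.35, -1.23 and -1.43 (SE 0.15) and UGDH, which makes UDP-glucuronate, by -1.15, -1.42, -1.26 and -1.31 (SE 0.17), each called lower in all 4. SLC7A11, the cystine importer that feeds glutathione synthesis, changed by -1.77, -1.86, -1.96 and -0.92 (SE 0.75) and was called at 48 h in knockout cells alone (adjusted p 0.0462). Without knockout 48 h replicate 2 that change was -1.21 (adjusted p 0.232). Of 15 measured NADPH supply genes, 8, 4, 5 and 4 were higher and 2, 3, 2 and 2 lower, with medians of 0.33, 0.25, 0.21 and 0.37. Without knockout 48 h replicate 1 the 7 calls at 48 h in knockout cells were 4. The pentose phosphate enzymes parted, with TKT at 0.89, 0.96, 0.63 and 0.77 (SE 0.11) and PGD at 0.79, 0.85, 0.57 and 0.76 (SE 0.10) higher and TALDO1 at -0.60, -0.63, -0.76 and -0.93 (SE 0.16) lower in all 4. NADK, which makes NADP, changed by 0.85, 1.10, 0.37 and 0.79 (SE 0.14) and missed the threshold at 48 h in knockout cells (adjusted p 0.0501).

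Of 19 measured genes of other glutathione metabolism, 4, 2, 2 and 4 were higher and 6, 6, 8 and 4 lower, with medians of 0.00, -0.10, -0.14 and -0.10. The 10 calls at 48 h in each genotype were 5 or 6 without untreated wild-type replicate 1 or 3 and without any 1 untreated knockout array, and the latter 6 with quantile normalization. CHAC2, which degrades glutathione, changed by -2.40, -2.87, -2.17 and -2.48 (SE 0.22), ANPEP, a surface aminopeptidase, by -1.83, -2.16, -1.84 and -2.02 (SE 0.21) and GLO1, the glyoxalase that uses glutathione, by -1.11, -1.14, -1.08 and -0.91 (SE 0.13), all called in each comparison. SLC3A2, the partner chain of SLC7A11, changed by -0.72, -0.82, -0.86 and -0.54 (SE 0.28) and was called at 72 h in wild-type and 48 h in knockout cells, calls that ended without any 1 untreated array (adjusted p 0.0509 to 0.0652). The 28 other thioredoxin and peroxide repair genes had 3, 3, 3 and 2 called higher and 12, 13, 13 and 14 lower (42.9%, 46.4%, 46.4% and 50.0%), with medians of -0.17, -0.32, -0.27 and -0.39. TXNL1, a thioredoxin-like protein of the proteasome, changed by -1.68, -1.66, -1.57 and -1.46 (SE 0.11) and SELENOS, a selenoprotein of the endoplasmic reticulum, by -1.50, -1.51, -1.39 and -1.55 (SE 0.16). TXNDC9 changed by -1.09, -1.33, -1.17 and -1.36 (SE 0.20) and SELENOT by -1.11, -1.09, -1.24 and -1.13 (SE 0.14), and all 4 genes were called in each comparison.

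Of 20 measured oxidant sources, 5, 6, 6 and 6 were higher and 6, 5, 6 and 5 lower, with medians of 0.09, 0.15, 0.07 and 0.18. CYBA and CYBB, the membrane subunits of the phagocyte NADPH oxidase, changed by 1.53, 1.62, 1.30 and 1.12 (SE 0.11) and by 1.20, 1.36, 0.86 and 1.32 (SE 0.28), while HVCN1, the proton channel that supports it, changed by -1.80, -1.89, -1.91 and -1.67 (SE 0.17). At 48 h in knockout cells CYBB changed by 0.49 (adjusted p 0.129) without replicate 3 and by 0.07 (0.831) without the 4 arrays nearest to the untreated ones, which leaves replicate 2 alone. EPX, eosinophil peroxidase, changed by -1.62, -1.72, -1.54 and -1.77 (SE 0.16). The 6 markers of eosinophils, basophils and mast cells had array means of 6.68 to 6.85 untreated and 5.36 to 5.81 after ATRA. They did not move together. In each ATRA comparison 3 of them were called lower, while 1 and 2 were called higher at 48 h and 72 h in wild-type cells. Their changes ran from -3.72 to 1.45. The part of such a mixed shift in the members that fell was not tested. No listed gene was called in a genotype, response or time comparison.

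**Figure D5:**
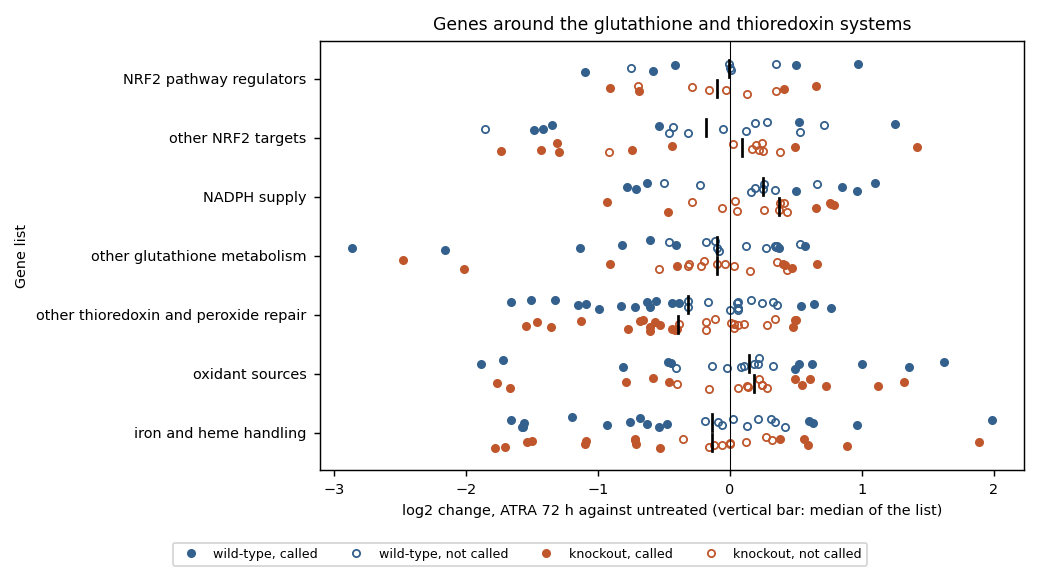
Log2 change at 72 h of ATRA against untreated cells (horizontal axis) of the genes in 7 lists around the glutathione and thioredoxin systems (vertical axis), in wild-type (blue) and knockout cells (orange), filled where the limma adjusted p was under 0.05, with a vertical bar at the median of each list. The median of the other thioredoxin and peroxide repair genes lies lowest, at -0.32 in wild-type and -0.39 in knockout cells.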

How the data were processed

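RNA of 18 samples (300 ng each) was read on Affymetrix whole-transcript arrays, 3 per group, with groups and replicate numbers taken from the labels. The deposited table gives 1 value per probe set and array, taken here as log2. The scale was inferred from the values, which run from 0.73 to 13.56 with 2 decimals, and how the authors corrected, normalized and summarised the probes is not given in the sources used here. All value columns matched a sample. The number of arrays limits the precision.

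Symbols come from the platform annotation, all 52 members matched RefSeq by gene identifier, and of several probe sets of a gene the brightest over the 18 arrays stands for it. limma 3.58.1 in R 4.3.3 was fitted to all 18 arrays and 33297 probe sets with 1 mean per group, followed by eBayes with a trend. P-values were adjusted by Benjamini-Hochberg across the probe sets of each comparison, a call is an adjusted p under 0.05, and tests were 2-sided. The fit takes 1 spread for all groups. It was run on simulated arrays with planted changes, but these had the same spread in every group. They therefore cannot test that assumption. Members above the median probe set had a mean over 6.18.

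The members and lists were chosen with earlier results of these data known. Values on every array are given for members called at 48 h or 72 h in both genotypes with a log2 change of at least 1, at most 14, and for the 3 with the smallest p where no genotype comparison had a call. Of each list, up to 4 called genes with the largest mean change are named. GSTA3, PRDX6-AS1 and other members are described by their role group.

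Numbers were taken as pairs where all 3 same-numbered correlations of deviations were over 0.1, met between the genotypes at 72 h (r of 0.103, 0.16 and 0.138 for numbers 1 to 3) and narrowly missed between them at 48 h (0.196, 0.194 and 0.089) and between the times in wild-type cells (0.095, 0.137 and 0.186). Alternatives were quantile normalization, median centring, the brighter probe sets, probe sets of 1 gene, the most variable probe set, 2 other eBayes settings, array weights, the replicate block, only the compared groups, and leaving out each array.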

Additional observations from a re-analysis of the deposited data

How the results depend on the processing

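The counts of members called under ATRA stayed within 1.5 times their reported values under every alternative run. Leaving out 1 array gave 13 to 19 and 18 to 21 in wild-type cells at 48 h and 72 h, and 14 to 20 and 16 to 19 in knockout cells. In the same order 29.7% to 41%, 34.5% to 40.1%, 31.9% to 41.2% and 32.6% to 41.8% of all probe sets were then called. The replicate block, which the labels' shared replicate numbers allow, gave 21 and 21 in wild-type and 22 and 20 in knockout cells. It called 39.8%, 45%, 42.4% and 43.2% of all probe sets there. In the genotype comparisons it gave 0 members, beside 0.003%, 0.015% and 0.0871% of all probe sets. Apart from the genotypes at 72 h the replicate number is a shared number only. Over the 12 members given on every array, 750 of 764 alternative values of 48 results kept direction and call, 9 lost the call, 5 gained it and 0 reversed. These 12 were chosen by their calls and size of change in the same arrays, so this follows in part from that choice. Over all members 25 of the 77 calls under ATRA ended under at least 1 alternative. Of the 28 counts of list genes under ATRA, 425 of 448 alternative values were within 1.5 times and 23 were not.

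Untreated genotype calls were 2 with only the compared groups in the fit (CAT by 0.27 and MGST3 by 0.24, higher in knockout cells), where 0.853% of all probe sets were called, and the cause was not tested. An alternative chosen after seeing the data left out the 4 ATRA arrays nearest to untreated cells, which leaves 1 knockout array at 48 h, assumed to vary like the other groups. It called 1 member at 48 h (MGST3, 0.94) and 1 at 72 h (GLRX) between the genotypes, and 3 between the times in knockout cells (GSTM4, MGST3 and PRDX2, all lower at 72 h), while 4.64%, 1.49% and 11.5% of all probe sets were called. Leaving out 1 array gave 0 to 1 members between the genotypes at 72 h, beside 0.033% to 0.378% of all probe sets. GLRX5 reversed at 72 h in wild-type cells with its most variable probe set, to -0.58. The 3 arrays per group and the unstated background correction limit what dim probe sets such as GPX8 can show.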

Other observations

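Iron and heme handling genes were counted as a further list. Of 24 measured, 4 were called higher and 11 lower at 72 h in wild-type cells and 5 and 10 in knockout cells, with medians of -0.14 in both (limma). Over all probe sets 23.1% and 22.8% were called higher and 21% and 19.2% lower, and above the median probe set 34.5% and 32.1% lower. ALAS1, which starts heme synthesis, changed by 1.92, 1.99, 1.85 and 1.89 (SE 0.10) at 48 h and 72 h in wild-type and then in knockout cells. HEBP1 and HEBP2, heme-binding proteins, changed by -1.65, -1.56, -2.12 and -1.50 (SE 0.17) and by -1.73, -1.66, -1.60 and -1.54 (SE 0.12). ABCB10, a mitochondrial transporter, changed by -1.33, -1.57, -1.50 and -1.71 (SE 0.13). All 4 genes were called in each of these comparisons, and no gene of the list was called between the genotypes.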
